A study of Mus musculus with 30 samples.

Results

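Mitochondrial ribosomal protein genes, 78 in all, were followed in single mouse embryos that carried 2, 1 or no working copies of *Dis3*. They were taken as the protein-coding genes of the GENCODE vM21 annotation whose symbol is *Mrpl* or *Mrps* followed by a number, which gave 78 of the 55487 genes in the count files and of the 21974 protein-coding ones. No measured value entered this choice. The proteins of 51 of them sit in the large subunit of the mitochondrial ribosome, including *Mrps30* and *Mrps18a* despite their names. The other 27 were taken as small subunit members by their symbol, *Mrps36* among them, whose product is also known in another complex.

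The mitochondrial ribosome translates the few messages that mitochondrial DNA encodes, all of them for subunits of the respiratory chain and ATP synthase. Its ribosomal RNAs come from mitochondrial DNA, but its proteins are encoded in the nucleus, made in the cytosol and imported, so that production of the particle depends on both genomes. In the mouse the mitochondria of the early embryo are inherited from the egg, and the cleaving embryo replaces maternal messages by its own transcripts before it forms a blastocyst.

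The study examined pre-implantation embryos that lack DIS3, a ribonuclease associated with the RNA exosome, a complex that degrades RNA. Polyadenylated RNA was sequenced from each embryo separately after addition of ERCC spike-in RNAs, and the genomic DNA of the same embryo was used for genotyping. All embryos came from matings of heterozygous parents, with hormonally stimulated females, and the null allele was a CRISPR/Cas9 deletion of internal *Dis3* exons, so that every embryo developed from an egg of a heterozygous mother and *Dis3* RNA or protein from the egg could be present in all groups. The E2.5 embryos, of the late cleavage to morula period, comprised 6 wild-type (*Dis3*+/+), 2 heterozygous (het, *Dis3*+/-) and 4 homozygous null (*Dis3*-/-) embryos. Those taken at E2.75 comprised 3, 5 and 3 embryos of these genotypes. Nothing in the labels says whether the stages were collected on the same day or from shared litters, so stage and collection cannot be told apart. Binding of the homeodomain factor POU6F1 was measured by chromatin immunoprecipitation sequencing (ChIP-seq) in embryonic stem cells that had been derived from blastocysts of *Dis3* flox/flox mice and transfected with *Pou6f1-mCherry*. The 2 replicates used an anti-mCherry antibody, which reports a tagged factor expressed from a plasmid and not the factor of the embryo. The samples hold a single anti-IgG library and a single anti-mCherry library of mCherry-only cells, so the replicates had no separate controls.

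Counts assigned to genes ranged from 1690192 to 14015980 per embryo (median 8030848), and spike-ins took 2.06% to 7.44% of the counts. The share of reads outside annotated exons was 32.3% to 43.9% in the 7 null embryos and 20.99% to 33.4% in the other embryos, and this difference moved with every comparison of null embryos below. It also moved with stage, at 32.3% to 39.5% in E2.5 and 41.1% to 43.9% in E2.75 null embryos, and at medians of 24.3% and 28.8% in wild-type ones. Its part in these comparisons was not tested. *Pou5f1*, a marker of early embryonic cells, was read in all 23 embryos at 266.5 to 1576 CPM (counts scaled to the effective library size), whereas the 8 cumulus and granulosa cell markers summed to 18.9 CPM in 1 E2.5 null embryo (all of it *Has2*), 0.986 to 3.46 CPM in E2.75 null embryos and 0 to 2.71 CPM in the het and wild-type embryos. *Inha* and *Ptx3* were at 0 in all 23 embryos, and the part of these cells in the results was not tested.

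*Dis3* itself was measured first. In E2.5 wild-type embryos it was at 146.79, 133.73, 108.52, 63.63, 40.20 and 18.05 CPM, in E2.5 hets at 58.23 and 59.19 CPM, and in E2.5 null embryos at 16.01, 2.55, 0 and 14.34 CPM. Wild-type embryos of E2.75 had 111.56, 64.38 and 106.84 CPM, hets had 42.28, 30.44, 49.61, 43.81 and 36.72 CPM, and null embryos had 12.82, 21.54 and 10.11 CPM. All 7 null embryos lay below all 7 hets (two-sided exact permutation test on log2(CPM + 1), p = 0.000583), and E2.5 wild-type replicate 6 fell within the range of the null embryos. Calls of the members that changed without that embryo are given beside the comparisons with wild-type.

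The start regions of 4 members are shown because the results below turn on them. *Mrpl10* and *Mrpl14* were the members that passed a threshold as lower in null than in het embryos, and *Mrps33* and *Mrps18c* had the largest called decreases from E2.5 to E2.75 in wild-type embryos with TMM scaling, which passed no threshold with spike-in scaling. In GRCm38 the genes are *Mrpl10* (ENSMUSG00000001445) at chr11:97041560-97049213, *Mrpl14* (ENSMUSG00000023939) at chr17:45686322-45698495, *Mrps18c* (ENSMUSG00000016833) at chr5:100798627-100804471 and *Mrps33* (ENSMUSG00000029918) at chr6:39801804-39810988. Each sequence runs from 250 bases before to 50 after the RefSeq start (GRCm38.p6), 5′ to 3′ on the strand of the gene, and capitals mark letters of the motifs searched below. The windows, each spanning the 5′ end of the gene, are *Mrpl10* at chr11:97041332-97041631 (+), *Mrpl14* at chr17:45686099-45686398 (+), *Mrps18c* at chr5:100798509-100798808 (+) and *Mrps33* at chr6:39810887-39811186 (-).
Mrpl10: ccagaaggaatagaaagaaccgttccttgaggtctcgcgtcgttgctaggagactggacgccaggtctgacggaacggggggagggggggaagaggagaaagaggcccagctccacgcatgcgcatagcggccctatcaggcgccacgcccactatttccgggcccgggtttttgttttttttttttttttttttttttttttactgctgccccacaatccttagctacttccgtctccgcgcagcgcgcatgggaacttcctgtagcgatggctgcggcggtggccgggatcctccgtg
Mrpl14: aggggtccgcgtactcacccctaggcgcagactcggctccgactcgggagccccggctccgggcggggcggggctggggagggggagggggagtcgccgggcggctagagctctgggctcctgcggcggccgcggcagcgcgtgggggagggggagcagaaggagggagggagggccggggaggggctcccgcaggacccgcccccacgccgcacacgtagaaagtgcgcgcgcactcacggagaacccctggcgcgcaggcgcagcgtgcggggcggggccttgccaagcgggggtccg
Mrps18c: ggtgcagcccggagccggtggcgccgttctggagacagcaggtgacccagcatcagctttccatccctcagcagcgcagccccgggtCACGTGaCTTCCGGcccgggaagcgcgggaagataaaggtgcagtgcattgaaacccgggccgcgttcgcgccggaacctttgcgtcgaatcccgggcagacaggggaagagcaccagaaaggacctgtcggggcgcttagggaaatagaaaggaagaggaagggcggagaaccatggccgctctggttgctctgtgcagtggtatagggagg
Mrps33: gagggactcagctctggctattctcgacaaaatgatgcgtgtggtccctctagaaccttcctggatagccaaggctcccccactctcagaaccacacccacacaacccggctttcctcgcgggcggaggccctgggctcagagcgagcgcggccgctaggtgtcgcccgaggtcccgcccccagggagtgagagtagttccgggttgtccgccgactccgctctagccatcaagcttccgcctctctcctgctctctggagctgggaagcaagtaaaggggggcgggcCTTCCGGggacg

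A promoter was found in the RefSeq table for 69 of the 78 members. *Mrpl4*, *Mrpl13*, *Mrpl15*, *Mrpl19*, *Mrpl38*, *Mrpl54*, *Mrps28*, *Mrps34* and *Mrps35* had no entry there. Both strands were searched for 5 motifs, with 1 promoter a gene. The ETS family motif ccggaag is bound by factors such as GABPA that control many nuclear genes for mitochondria. This motif was in 25 of 69 member promoters (36.2%), in 12.3% of the 16522 promoters of protein-coding genes and in 9.12% of all 27025 promoters of the table. It is in capitals as the reverse complement in the *Mrps18c* and *Mrps33* sequences. The YY1 motif aagatggc was in 12 (17.4%, against 3.29% of coding and 2.88% of all promoters). The 10-base palindrome of NRF1, a regulator of nuclear genes for mitochondria, was in 3 (4.35%, against 1.37% and 0.977%). The E-box cacgtg, also marked in *Mrps18c*, was in 5 (7.25%, against 8.11% of coding and 7.24% of all promoters). The octamer atgcaaat was in none (1.65% of coding and 1.75% of all promoters). No marked motifs overlap each other in these sequences, and the *Mrpl10* and *Mrpl14* windows held none of them. The member promoters had a median GC content of 58.3% and 21 CpG dinucleotides, against 57% and 14 in the promoters of protein-coding genes.

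Many members share a start region with another gene. A protein-coding gene on the other strand started within 1 kb for 32 of 78 members (41.0%), against 11.2% of protein-coding genes and 18.0% of those that passed the count filter in the genotype comparison. Partners included *Twnk*, the mitochondrial DNA helicase, at *Mrpl43*, the mitochondrial seryl-tRNA synthetase gene *Sars2* at *Mrps12*, and the respiratory complex I genes *Ndufs6* at *Mrpl36* and *Ndufb5* at *Mrpl47*. One such pair lies within the family, *Mrpl46* and *Mrps11*, 1 gene of each subunit.

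The members were well read in single embryos. Between 77 and 78 of them had a count in each embryo. Together they took 0.781% to 1.35% of the gene counts of an embryo. Averaged over the 23 embryos and divided by the length of the principal mRNA, their levels had a median of 65.1 CPM per kb, against 7.28 CPM per kb for the 11220 protein-coding genes tested between genotypes, and medians of 77.8 and 45.1 CPM per kb in the large and small subunit.

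Although the proteins are built into 1 particle, the levels of their mRNAs per kb ranged widely. The highest were *Mrpl20* (704 ± 333 CPM per kb, SD, n = 23), *Mrpl22* (614 ± 262), *Mrpl33* (375 ± 164), *Mrpl28* (349 ± 149) and *Mrps24* (313 ± 112). Neighbors in this order differed by less than 1 SD, and *Mrpl33* ranked 53 when all annotated exons were used as its length. The lowest were *Mrpl53* (1.16 ± 0.874), *Mrps36* (4.08 ± 2.42), *Mrps23* (5.86 ± 3.15), *Mrps5* (6.75 ± 2.39) and *Mrps25* (7.24 ± 3.25), and again neighbors from *Mrps36* to *Mrps25* differed by less than 1 SD. MRPS36 is also known as a component of the 2-oxoglutarate dehydrogenase complex.

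Some members could be counted only in part. Only reads that fell in 1 gene were counted and strand was not used. Other annotated genes share 88% of the exon length of *Mrpl53*, 78% of that of *Mrps34* and 70% of that of *Mrps25*. Smaller parts are shared at other members, among them *Mrps27* (24.2%). Of the 78 mRNAs, 11 matched another place in the genome at 95% identity or more over at least 50% of their length, so that their reads could be lost or divided and their values are uncertain. These were *Mrpl21*, *Mrpl22*, *Mrpl23*, *Mrpl27*, *Mrpl30*, *Mrpl42*, *Mrps10*, *Mrps18b*, *Mrps21*, *Mrps33* and *Mrps36*.

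The share of the whole family by stage and genotype was compared next. In wild-type embryos the members took 1.00% to 1.35% of gene counts at E2.5 (median 1.15%) and 0.801%, 0.781% and 0.853% at E2.75. The groups did not overlap. In null embryos the share was 0.975%, 1.01%, 1.10% and 1.29% at E2.5 and 0.967%, 0.806% and 0.826% at E2.75, and these groups did not overlap either, by a small gap.
In hets it was 0.869% and 1.23% at E2.5 and 0.914% to 0.994% at E2.75, with the E2.75 values inside the E2.5 range. Within E2.5 the genotypes overlapped, and at E2.75 all 5 hets lay above all 3 wild-type embryos.

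**Figure D1:**
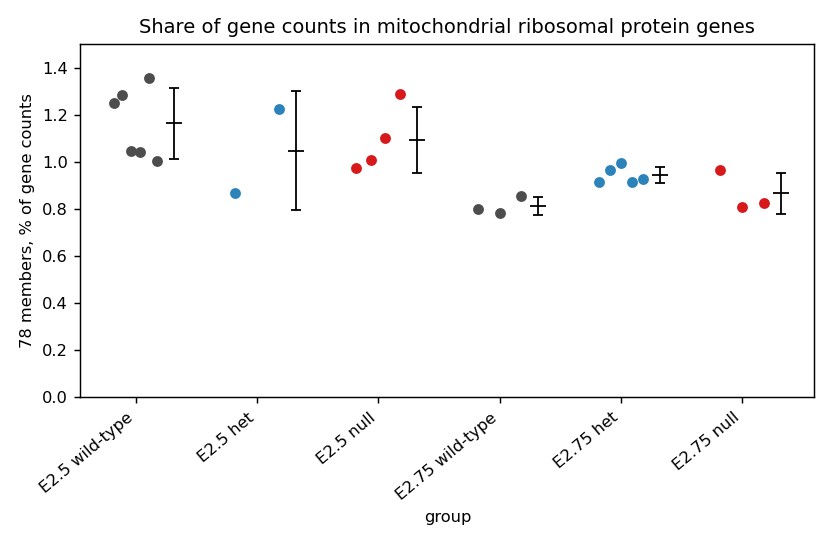
Share of gene counts (percent, y axis from 0) taken by the 78 mitochondrial ribosomal protein genes in each embryo (points), by stage and genotype on the x axis, with the mean and SD of each group beside the points. The 3 E2.75 wild-type embryos, at 0.781% to 0.853%, lie below all 6 E2.5 wild-type embryos.

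Null embryos were first set against hets, with both stages in 1 comparison. Genes were called where edgeR's quasi-likelihood test gave a Benjamini-Hochberg adjusted p below 0.1 over all genes tested and the change was over 2-fold. Of 77 members tested, 1 was lower and 0 were higher in null embryos, in a comparison that called 5.73% of all 13415 genes and 2.06% as lower. At any fold, 2 were lower and 0 higher, against 6.48% of all genes called by that rule and 2.38% called as lower. The member without a test was *Mrpl53*, the only one below the count filter. The median log2 fold change was 0.05 for the members and 0.02 for all genes tested. Of 10 embryo markers, the trophectoderm genes *Gata3* (-2.12) and *Krt18* (-2.95) were lower and *Sox15* (1.59) was higher in the same fit, and their part in the values of the members was not tested.

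The member called was *Mrpl10*, which encodes the protein at the base of the stalk through which translation factors reach the large subunit. Its CPM were 28.01 and 22.73 in E2.5 hets and 4.26, 1.87, 25.64 and 31.03 in E2.5 null embryos. The E2.75 hets had 71.80, 52.44, 65.29, 62.08 and 55.93 CPM, and the E2.75 null embryos had 9.86, 17.95 and 7.06 CPM. At E2.75 every null embryo was below every het with no overlap, whereas at E2.5 a pair of null embryos was far below the hets and the other pair was at or above their level. The log2 fold change was -1.88 (SE 0.47, adjusted p = 0.0211), and the exact permutation test gave p = 0.00291 over all embryos and p = 0.0179 within stages. It overlaps *Gm11574* on the other strand over 14.05% of its exon length, and that gene was at 0 in every embryo.

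By stage, *Mrpl10* was lower in null than in het embryos at E2.75 (log2 fold change -2.46, SE 0.40, adjusted p = 0.00658), the only one of 77 members called there in either direction, in a comparison that called 4.82% of genes and 2.31% as lower. All 3 null embryos lay below all 5 hets for 10 of 77 members (13%, against 6.11% of all genes tested) and above them for 3 (3.9%, against 7.7%). At E2.5 its log2 fold change was -0.79 (SE 0.86, adjusted p = 0.834). The difference between the stages in this effect was -1.71 (SE 0.98, adjusted p = 0.780). At E2.5, edgeR called 0 of 78 members against hets and 0.0126% of all genes. At an unadjusted p under 0.05 there were 3 members, and DESeq2 called 0.

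The second was *Mrpl14*, whose protein is a universally conserved core protein of the large subunit near the interface with the small one. The E2.5 hets had 65.35 and 68.47 CPM and the E2.5 null embryos 42.73, 26.00, 52.51 and 28.44 CPM. Hets of E2.75 had 63.25, 57.57, 75.08, 72.55 and 52.87 CPM and null embryos 30.07, 43.08 and 22.01 CPM. All 7 null embryos were below all 7 hets, the lowest het being at 52.87 and the highest null embryo at 52.51 CPM. It was the 1 of 77 members (1.3%) with this separation, which 0.686% of all genes tested had. The log2 fold change was -0.90 (SE 0.29, adjusted p = 0.0787). The exact permutation test gave p = 0.000583, and within stages p = 0.00119, the smallest that this design allows. Its exons overlap those of *Tmem63b* on the other strand over 11.2% of their length, a gene at 1.70 to 78.5 CPM. The adjusted p was above 0.1, up to 0.140, without E2.5 null replicate 2 or 4, E2.75 het replicate 1, 3 or 4, or E2.75 null replicate 3.

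No other member passed the threshold. The next most negative were *Mrps27* (log2 fold change -0.88, SE 0.39), a pentatricopeptide repeat protein of the small subunit, *Mrps6* (-0.74, SE 0.28), and *Mrps25* (-0.60). The most positive were *Mrps28* (0.81, SE 0.32), *Mrpl20* (0.76, SE 0.32), *Mrpl28* (0.71), *Mrps18c* (0.71) and *Mrpl57* (0.69). Adjusted p for *Mrps27*, *Mrps6*, *Mrps28* and *Mrpl20* were 0.228, 0.146, 0.164 and 0.198. The hets were mostly E2.75 embryos and the null embryos mostly E2.5 ones, and with stage as a term 2 members were called lower and the median of the members was -0.11. Without E2.5 het replicate 2, *Mrps28* passed (log2 fold change 1.07, adjusted p = 0.0472) and 2 members were called, 1 in each direction. Without E2.5 null replicate 3, 2 were called lower.

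Against wild-type embryos, which share the same null embryos, 2 of 77 members were lower and 0 higher, in a comparison that called 5.25% of all genes and 1.59% as lower. At any fold, 3 were lower and 1 was higher, against 5.87% of all genes called by that rule. The median log2 fold change of the members was -0.16, against -0.02 for all genes tested, and 56 of 77 were negative. The share of all genes that were negative is not given here. E2.5 embryos made up a larger part of the wild-type than of the null group, and the part of this mix was not tested.

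For *Mrpl10*, wild-type embryos had 15.52 to 61.96 CPM at E2.5 (median 42.0, n = 6). The 3 of E2.75 had 27.16, 41.55 and 27.47 CPM. At E2.75 no null embryo reached them, and at E2.5 the groups overlapped. Its log2 fold change with stages combined was -1.42 (SE 0.45, adjusted p = 0.0794), and the exact permutation p was 0.0035. This call was lost without any of 8 embryos (adjusted p up to 0.145), namely E2.5 null replicate 1 or 2, E2.5 wild-type replicate 4, 5 or 6, E2.75 null replicate 1 or 3 and E2.75 wild-type replicate 2. Without E2.5 wild-type replicate 5, 0 members were called, and without each of the other 7, 1 was called.

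*Mrpl14* was at 51.24 to 157.19 CPM in the 6 E2.5 wild-type embryos (median 83.8), and the E2.75 ones had 61.51, 33.08 and 60.92 CPM. One null embryo at each stage exceeded the lowest wild-type embryo of that stage. Its log2 fold change was -1.15 (SE 0.28, adjusted p = 0.0145), with an exact permutation p of 0.00271, and it passed without any single embryo (adjusted p up to 0.0359).

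*Mrps6*, a small subunit protein with a bacterial counterpart, was at 49.93 to 115.56 CPM (median 69.5) in E2.5 wild-type embryos and 52.50, 50.13, 27.48 and 28.68 CPM in E2.5 null embryos. Wild-type embryos of E2.75 had 39.94, 42.44 and 48.65 CPM and null embryos 18.24, 33.85 and 40.98 CPM. The groups overlapped slightly at both stages, and the log2 fold change was -0.85 (SE 0.27, adjusted p = 0.0730, exact permutation p = 0.00524). Its exons overlap those of *Slc5a3* and *Gm49711* on the same strand over 19.9% of their length, and reads that fell within the shared part were not counted for any of them.

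*Mrpl38*, a mitochondria-specific member of the large subunit, was the 1 higher member. It was at 17.86 to 45.34 CPM (median 22.5) in E2.5 wild-type embryos against 50.32, 50.64, 32.67 and 62.53 CPM in E2.5 null embryos. The E2.75 values were 38.61, 26.51 and 37.10 CPM in wild-type and 51.27, 49.75 and 63.54 CPM in null embryos. The E2.75 groups did not overlap, and 1 E2.5 null embryo lay within the wild-type range. The log2 fold change was 0.82 (SE 0.27, adjusted p = 0.0842, exact permutation p = 0.00201). The *Mrps6* call was lost without any of 8 embryos and the *Mrpl38* call without any of 12, E2.5 wild-type replicate 6 among both (adjusted p up to 0.152 and 0.161).

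**Figure D2:**
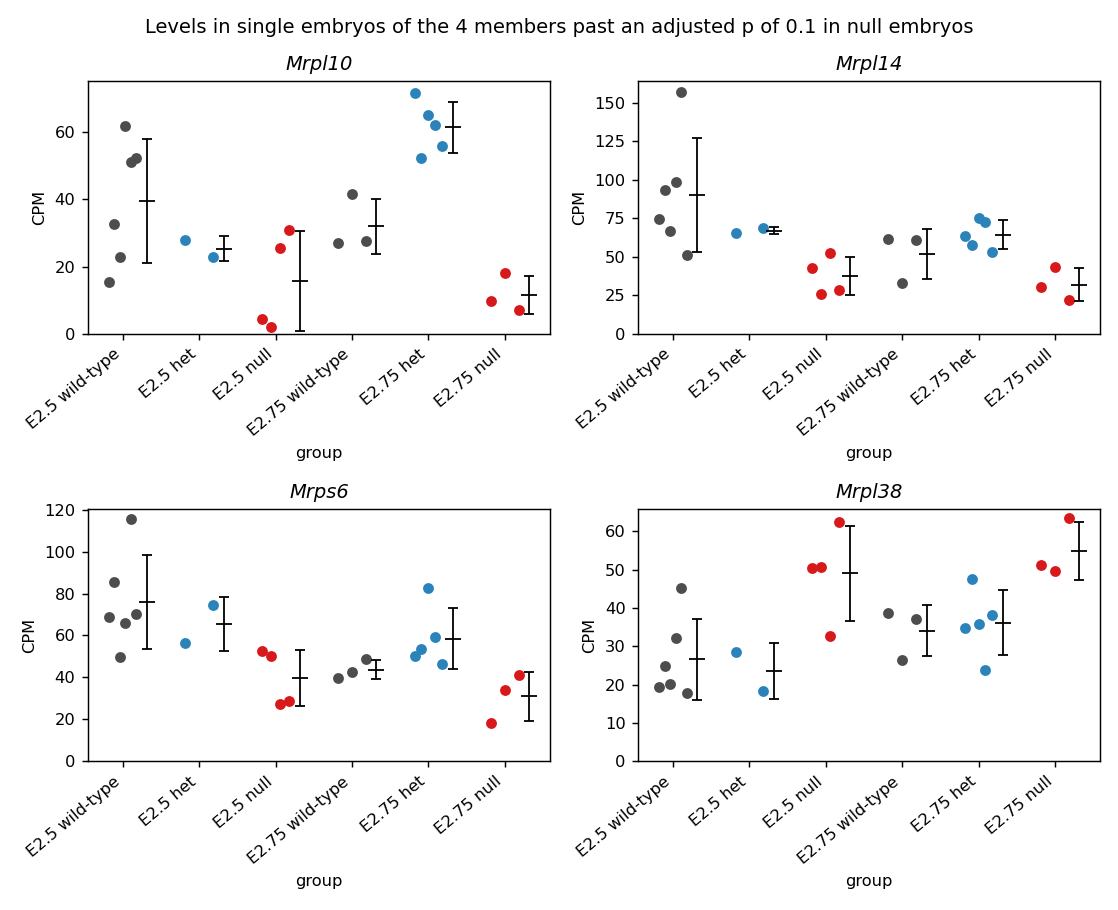
CPM (linear y axes from 0) of *Mrpl10*, *Mrpl14*, *Mrps6* and *Mrpl38* in each embryo (points), by stage and genotype on the x axis, with the mean and SD of each group beside the points. All 7 null embryos lie below all 7 hets for *Mrpl14*, and at E2.75 the 3 null embryos lie below the 5 hets for *Mrpl10* (7.06 to 17.95 against 52.44 to 71.80 CPM).

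By stage against wild-type, 0 of 78 members were called at E2.5 (10 at an unadjusted p under 0.05, and 1 by DESeq2), where 1.82% of all genes were called. The share of all genes at that unadjusted p is not given here, so the 10 do not set the members apart. *Mrpl14* came closest (log2 fold change -1.30, SE 0.36, adjusted p = 0.111), and without E2.5 wild-type replicate 6 there was 1 call. At E2.75, 1 member was lower and 1 higher, and 4.54% of all genes were called. All 3 null embryos lay above all 3 wild-type ones for 16 of 77 members (20.8%, against 12.5% of all genes tested) and below them for 6 (7.79%, against 10.6%). The lower one was *Mrpl10* (-1.54, SE 0.42, adjusted p = 0.0703). The higher one was *Mrps5*, a conserved small subunit protein, at 33.03, 35.90 and 53.99 CPM in null embryos and 10.38, 15.04 and 19.66 CPM in wild-type ones without overlap (1.39, SE 0.42, adjusted p = 0.0992). At any fold *Mrps14* (0.92, SE 0.22, adjusted p = 0.0481) and *Mrpl57* (0.93, SE 0.23, adjusted p = 0.0566) were also higher, against 4.69% of all genes called at any fold. The *Mrps5* call was lost without any of 10 of the 11 embryos of that stage (adjusted p up to 0.277). Leaving out an embryo gave 0 to 3 calls, with 0 without E2.75 wild-type replicate 2 or 3, het replicate 1 or 4, or null replicate 1 or 3, and 1 without wild-type replicate 1 or het replicate 2 or 5.

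Het and wild-type embryos were compared to ask about 1 lost copy. With stages combined, 0 of 77 members and 0 of all genes (0%) were called by edgeR. At an unadjusted p under 0.05 there were 9 members, 8 of them lower in hets, and DESeq2 called 0 members. The median was -0.20 for the members and -0.03 for all genes tested, and with stage as a term it was 0.05 for the members. The hets were mostly E2.75 and the wild-type embryos mostly E2.5 ones. Within stages edgeR also called 0 members and 0% of all genes. At E2.5 there was 1 member at an unadjusted p under 0.05 and 0 by DESeq2 (median -0.23). At E2.75 there were 11, all higher in hets, and 1 by DESeq2 (median 0.28). Shares of all genes at an unadjusted p under 0.05 or by DESeq2 are not given here, nor medians of all genes by stage. These counts and the medians by stage therefore do not set the members apart.

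The counts above compare shares of a library. When the libraries were scaled by the ERCC spike-ins, all genes moved, with a median log2 fold change of -1.08 in null against het embryos. The members had a median of -1.07, and 48 of 77 were called lower. That was a larger share than among all genes, whose calls on this scale, mostly lower too, are counted in the last section. The 2 medians were nearly equal, and the part of the members' higher read level in the larger share was not tested. Against wild-type the medians were -0.37 for all genes and -0.48 for members. In hets against wild-type the members turned from a median of -0.20 to 0.62, with 0.71 for all genes. On the spike-in scale *Mrps28*, *Mrpl20*, *Mrpl28*, *Mrps18c* and *Mrpl57* were below hets instead of above them (-0.30 to -0.55), and *Mrpl10* and *Mrpl14* had -3.10 and -1.97, both further than the shift of all genes. *Mrpl38* against wild-type was no longer past the threshold (0.41, adjusted p = 0.648). In a library made from a whole embryo, fewer cells and less RNA per cell cannot be told apart.

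The same genes were then followed from E2.5 to E2.75 in wild-type embryos. With TMM scaling 26 of 78 members were lower and 0 higher at E2.75, in a comparison that called 7.38% of all 18677 genes and 3.64% as lower. With spike-in scaling 6 members were higher and 0 lower. That was a smaller share than among all genes, whose calls on that scale, nearly all higher, are counted in the last section. At any fold with TMM 33 were lower, against 4.67% of all genes. The median log2 fold change was -0.81 for the members and -0.00 for all genes with TMM, and 0.21 for the members and 0.89 for all genes with the spike-ins, so that on both scales the members lay below the median of all genes. All 3 E2.75 embryos were below all 6 E2.5 embryos for 39 of 78 members (50%), as for 6.38% of all genes tested, and above them for 0.

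Among small subunit members, *Mrps33* changed most. Its E2.5 values were 94.68, 85.67, 52.61, 56.29, 123.27 and 39.59 CPM and its E2.75 values 22.37, 21.28 and 17.03 CPM, with no overlap. Its log2 fold change was -1.90 (SE 0.38, adjusted p = 0.00468). *Mrps18c*, the small subunit counterpart of bacterial S18, had 89.10 to 353.87 CPM (median 208.1, n = 6) before and 56.71, 63.72 and 67.20 CPM after, with a log2 fold change of -1.85 (SE 0.37, adjusted p = 0.00441). *Mrps24*, a protein near the entry of the mRNA channel, had 274.44 to 572.02 CPM (median 440.4) before and 122.48, 196.27 and 172.32 CPM after (-1.42, SE 0.26, adjusted p = 0.00227). The groups did not overlap in either gene. *Mrps18c* shares 23.2% of its exon length with *Gm43511* on the same strand, and *Mrps33* is among the genes with a copy.

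Among large subunit members, *Mrpl1* had 139.49 to 449.89 CPM (median 222.0) before and 103.84, 82.43 and 66.09 CPM after (log2 fold change -1.57, SE 0.36, adjusted p = 0.0122). *Mrpl33* had 164.68 to 387.69 CPM (median 216.6) before and 92.39, 88.00 and 84.54 CPM after (-1.51, SE 0.31, adjusted p = 0.00581). *Mrpl20* and *Mrpl22*, the highest per kb, had smaller changes than this pair. None of these genes overlapped between stages. *Mrpl22*, a protein that lines the exit tunnel for the nascent chain, had 448.04 to 815.17 CPM (median 653.1) before and 251.35, 270.35 and 266.68 CPM after (-1.28, SE 0.26, adjusted p = 0.00474). *Mrpl20* had 465.53 to 907.79 CPM (median 701.9) before and 305.67, 315.24 and 311.69 CPM after (-1.19, SE 0.25, adjusted p = 0.00639). On the spike-in scale *Mrps33* (-0.87), *Mrps18c* (-0.72), *Mrpl1* (-0.55), *Mrpl33* (-0.45), *Mrpl22* (-0.27) and *Mrpl20* (-0.16) kept the sign and none passed the threshold. With TMM *Mrpl12*, the L7/L12 protein of the stalk, changed by -1.13 (SE 0.27, adjusted p = 0.0148). *Mrpl10*, its partner at the stalk base, had -0.30 (SE 0.59, adjusted p = 0.851), and the difference between the genes was not tested.

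Members of both subunits were called. With TMM 19 of 51 large subunit members were lower (median -0.91), and with the spike-ins 0 were lower and 3 higher (median 0.16). Of small subunit members 7 of 27 were lower with TMM (median -0.79), and 0 lower and 3 higher with the spike-ins (median 0.28). Of the 46 members with a bacterial counterpart 18 were lower with TMM and 0 with the spike-ins, and of the 32 that are specific to mitochondria 8 and 0. Mitochondria-specific members lower with TMM included *Mrpl57* (-1.35, SE 0.24, adjusted p = 0.00194), *Mrpl46* (-1.32, SE 0.33, adjusted p = 0.0196) and *Mrpl58*, which encodes a peptidyl-tRNA hydrolase that was built into the ribosome (-1.22, SE 0.31, adjusted p = 0.0235). Among the S18 paralogs, whose products occupy different places in the particle, *Mrps18c* and *Mrps18a* (-1.14, SE 0.31, adjusted p = 0.0303) were lower with TMM, and *Mrps18b* had 0.09 (SE 0.25, adjusted p = 0.904). The *Mrps18a* call was lost without E2.75 wild-type replicate 1 (adjusted p = 0.181).

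Another 7 members had a positive change, none past the threshold with TMM. The largest were *Mrps2* (0.43), *Mrpl38* (0.35), *Mrps27* (0.34), *Mrpl4* (0.34) and *Mrps26* (0.24). With the spike-ins *Mrps2*, *Mrpl38*, *Mrpl4*, *Mrps26* and *Mrps18b* were among the members past the threshold, at 1.04 to 1.43. *Mrpl53* had the most negative value with TMM (-2.88, SE 1.51, adjusted p = 0.290), with 0.62 to 2.11 CPM before and 0, 0.22 and 0.20 CPM after, levels at which few reads were counted.

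**Figure D3:**
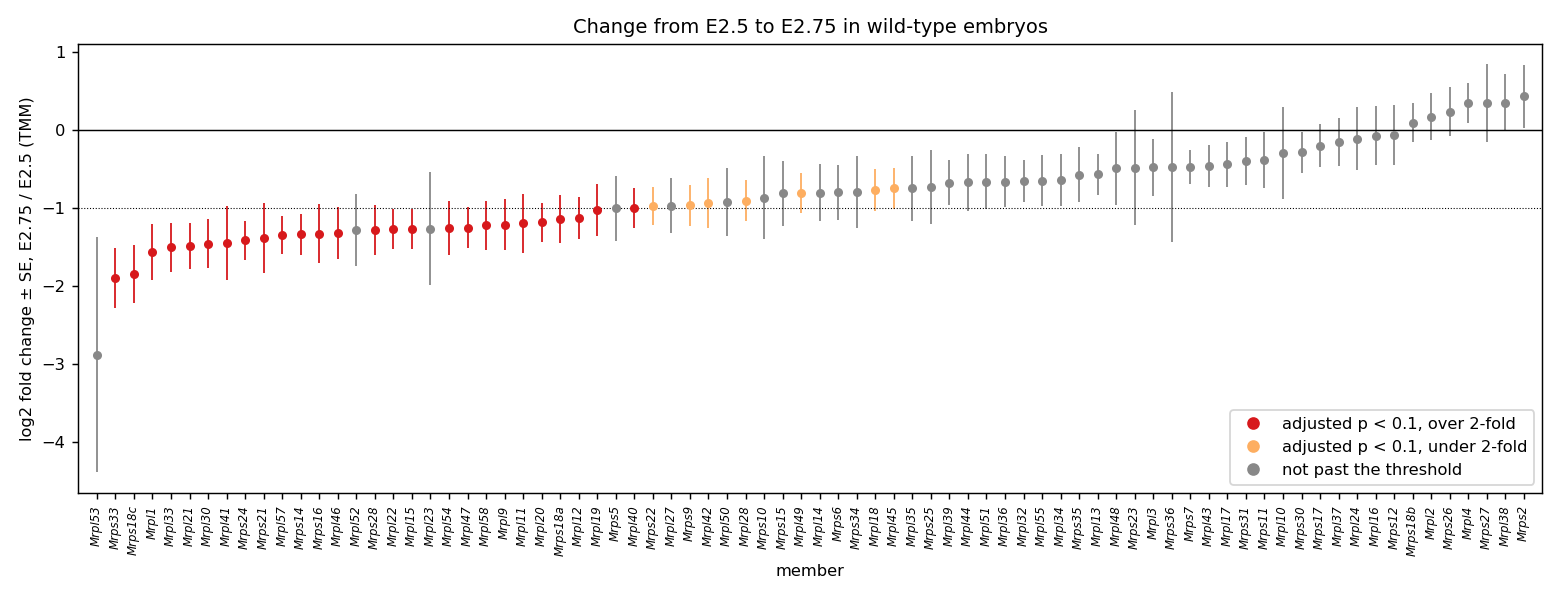
Log2 fold change with TMM scaling from E2.5 (n = 6) to E2.75 (n = 3) in wild-type embryos (y axis; points, with SE as lines) for each of the 78 members on the x axis, ordered by value and colored by the test. With this scaling 71 members lie below 0 and 26 are called lower (red), whereas with spike-in scaling 29 lie below 0 and 6 are called higher.

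Change with stage went with mRNA length. Among protein-coding genes the median log2 fold change with TMM was -0.93 for mRNAs up to 1 kb, -0.18 up to 2 kb, 0.14 up to 4 kb and 0.26 above 4 kb, and the share called lower went from 19.2% to 1.57%. The members' mRNAs had a median length of 1302 bases, against 2923 for the coding genes tested between genotypes. Within the same classes the medians of the members were -1.19 (n = 25), -0.53 (n = 28), -0.84 (n = 16) and -0.57 (n = 9), each below that of the coding genes in the class. Members called lower were 44%, 21.4%, 43.8% and 22.2% of each class. The part of mRNA length in the decrease was not tested further. The 26 members called had a median length of 1136 bases and a median level of 154 CPM, against 1368.5 bases and 73.4 CPM for the other 52.

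**Figure D4:**
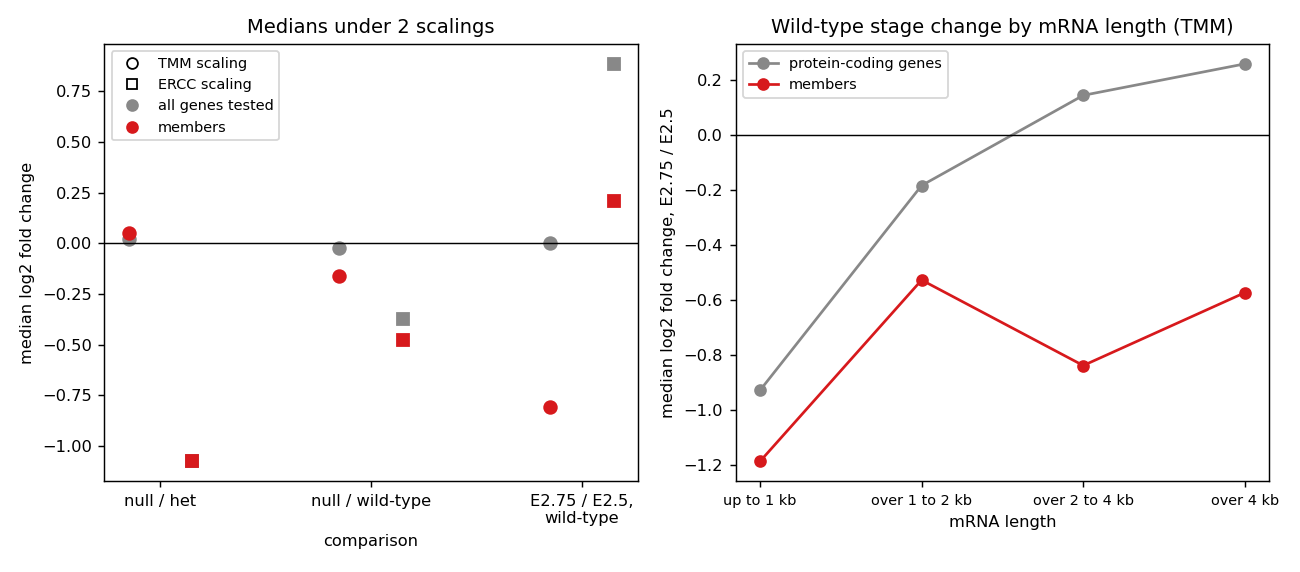
Left, median log2 fold changes (y axis) of all genes tested (gray) and of the members (red) in 3 comparisons (x axis), with TMM (circles) and spike-in scaling (squares). Right, median log2 fold change with TMM from E2.5 to E2.75 in wild-type embryos (y axis) by mRNA length class (x axis) for protein-coding genes (gray) and members (red). The members lie below the coding genes in every length class, and with spike-ins their stage median is 0.21 against 0.89 for all genes.

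Other gene groups moved in the same fits. Of the 84 cytosolic ribosomal protein genes 41 were lower and 1 was higher with TMM (median -1.07), and 0 were lower and 2 higher with the spike-ins (median -0.05). Of 80 nuclear genes for oxidative phosphorylation 35 were lower and 1 was higher with TMM (median -1.08), and 0 were lower and 9 higher with the spike-ins (median -0.01). Oocyte and polar body markers summed to 36.1 to 62.8 CPM in E2.5 and 7.095 to 19.4 CPM in E2.75 wild-type embryos, and 0 of 6 were called by edgeR with either scaling (1 at an unadjusted p under 0.05 with TMM). Their part in the change of the members was not tested. The cumulus cell markers summed to 0 to 0.825 CPM in the former and 0.266 to 0.668 CPM in the latter embryos.

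With the spike-ins 5 of 78 members were higher and 0 lower at E2.75 than at E2.5 in null embryos, and the share of all genes on that scale is not given here. With TMM 6 of 78 were lower and 0 higher (median -0.47), in a comparison that called 3% of all genes and 1.77% as lower. The 6 were *Mrpl20* (-1.34, SE 0.26, adjusted p = 0.0122), *Mrps9* (-1.30), *Mrps22* (-1.13), *Mrps17* (-1.12), *Mrpl28* (-1.02) and *Mrpl40* (-1.01). *Mrpl20* had 606.09, 884.63, 1040.43 and 952.03 CPM before and 429.84, 267.73 and 342.49 CPM after, with no overlap. There were 11 calls without E2.5 null replicate 1 and 1 without E2.75 null replicate 2. In hets 0 members were called (11 at an unadjusted p under 0.05, and 1 by DESeq2), and 0.278% of all genes. The share of all genes at that unadjusted p is not given here. The median of the members in hets was -0.35, against 0.12 for all genes, and it was 0.18 with the spike-ins.

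The difference between genotypes in the change with stage was tested directly. For null against het embryos 0 members passed (0 at an unadjusted p under 0.05, and 0 by DESeq2), as did 0% of all genes. For null against wild-type DESeq2 called 3 members, all 3 positive, that is, with a higher change in null embryos. There were 11 at an unadjusted p under 0.05, with no share of all genes given here. By edgeR 0 passed, and again 0% of all genes. A smaller number of calls in null or het embryos was therefore not shown to be a different change.

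The protein families that build and use the mitochondrial ribosome were examined with the same fits. In null against het embryos the spike-ins gave 0 of 25 assembly genes higher and 12 lower (median -1.13), on a scale where all genes shifted lower. With TMM 3 were higher and 0 lower, in a comparison that called 5.73% of all genes and 2.06% as lower. They were *Trmt61b*, a methyltransferase of mitochondrial RNA (1.65, SE 0.45, adjusted p = 0.0347), *Ngrn*, which binds the large ribosomal RNA (1.22, SE 0.28, adjusted p = 0.0102), and *Mterf3*, which acts in transcription and large subunit assembly (1.01, SE 0.26, adjusted p = 0.0262). Of 15 translation factors, 20 aminoacyl-tRNA synthetases, 10 genes for mitochondrial DNA expression and 5 mitoribosome proteins of other names 0 were called by edgeR, with 3, 1, 1 and 0 at an unadjusted p under 0.05. Of 7 regulators of nuclear genes for mitochondria *Gabpb1*, a subunit of the ETS factor GABP, was higher at any fold with TMM (0.90, SE 0.26, adjusted p = 0.0455) and had -0.36 with the spike-ins. The spike-in values of *Trmt61b*, *Ngrn* and *Mterf3* were 0.46, 0.10 and -0.26. Against wild-type with TMM, *Ddx28* (1.16) and *Ngrn* (1.13) were higher, and the release factor gene *Mtrf1* (-4.33) and the methionyl-tRNA formyltransferase gene *Mtfmt* (-1.77) lower. The mitochondrial ribosomal RNAs *mt-Rnr1* and *mt-Rnr2* did not pass in either comparison (2 tested, median -0.05 and -0.37).

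From E2.5 to E2.75 in wild-type embryos, with TMM, the ribosome protein gene *Chchd1* was lower (-1.83, SE 0.38, adjusted p = 0.00605), as were the initiation factor gene *Mtif2* (-1.30) and *Slirp* (-1.40), whose protein stabilizes mitochondrial mRNAs. *Ssbp1*, the single-stranded DNA binding protein of mitochondria (-1.67), and the mitochondrial transcription elongation factor gene *Tefm* (-1.65) were lower too, and *Yy1* was lower at any fold (-0.95). Of 25 assembly genes 1 was lower and 1 higher (median -0.01), *Trmt61b* (-1.51, SE 0.41, adjusted p = 0.0312) and the helicase gene *Dhx30* (1.40), and *Malsu1* was also lower at any fold (-0.96, adjusted p = 0.0892). *Mars2*, the methionyl-tRNA synthetase gene, was higher (1.38). The aminoacyl-tRNA synthetases had a median of 0.69, with 1 of 20 higher and 0 lower, and with the spike-ins 1.32, with 5 higher. On the spike-in scale *Chchd1* (-0.78), *Mtif2* (-0.32), *Slirp* (-0.35), *Ssbp1* (-0.62), *Tefm* (-0.70), *Trmt61b* (-0.58), *Malsu1* (0.10) and *Yy1* (-0.03) did not pass, while *Dhx30* (2.24) and *Mars2* (2.28) did. *mt-Rnr1* had 0.31 and *mt-Rnr2* -1.02 (adjusted p = 0.748 and 0.131).

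POU6F1, whose gene the study examined downstream of DIS3, was bound near the start of many members in embryonic stem cells. A consensus peak, found in both replicates against IgG, lay within 1 kb of a start of 56 of 78 members (71.8%), against 47.4% of protein-coding genes. Among genes that passed the count filter the shares were 72.7% of 77 members and 73.6% of coding genes. Against the mCherry control the count was 22 of 78 (28.2%), against 15.3% of coding genes, and among genes that passed the count filter 28.6% of members against 27% of coding genes.

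The peaks were close to the start. The summit in replicate 1 lay within 100 bases of the nearest start at 46 members and within 250 bases at 52, upstream at 41 and downstream at 15. Fold enrichment over IgG had a median of 16.1 (6.74 to 49.2) in replicate 1 and 6.66 (3.62 to 18.3) in replicate 2, against medians of 15.2 and 6.23 over all coding genes with a peak. The highest were at *Mrpl49*, at 49.2 and 18.1, and *Mrps24*, at 45.6 and 18.3. At *Mrpl14* the values were 45.6 and 14.5 with the summit 86 bases upstream, and the peak spanned the whole printed window. The *Mrpl10* peak, at 26.7 and 10.9, also spanned it, with the summit 81 bases upstream, while *Mrpl38* had 28.6-fold in replicate 1 and *Mrps6* had no peak. The *Mrps18c* and *Mrps33* peaks, at 16.6 and 6.02 and at 19.1 and 7.83, covered most of their windows. The octamer motif was in none of these printed windows. Members with and without a peak had median log2 fold changes of 0.04 and 0.07 in null against het embryos and of -0.79 and -0.92 from E2.5 to E2.75 in wild-type embryos, both with TMM.

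**Figure D5:**
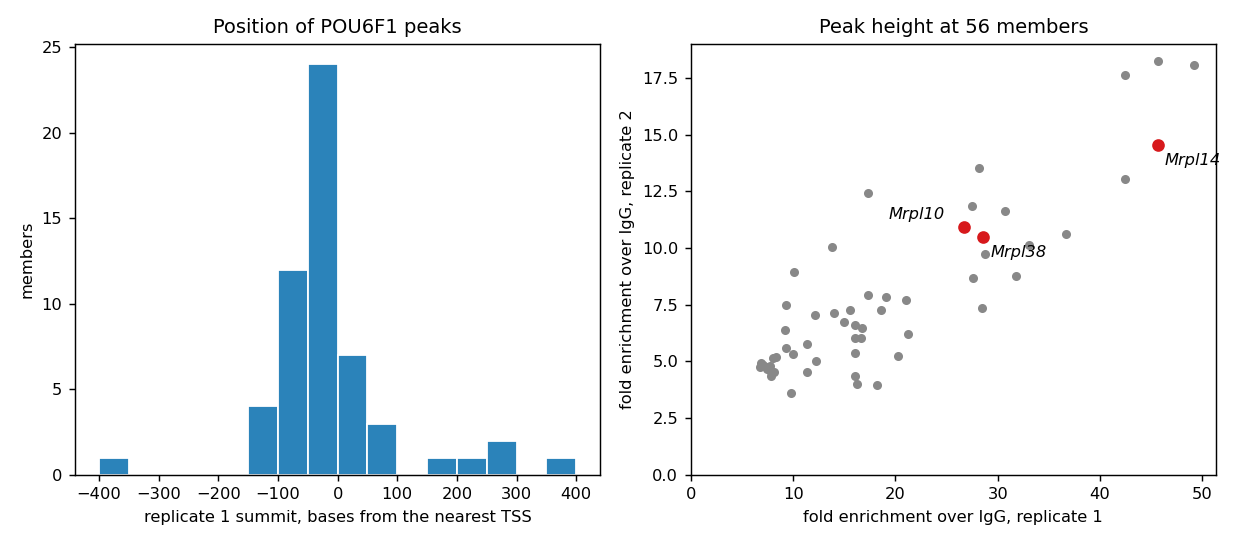
Left, number of members (y axis) by the distance in bases from the replicate 1 summit of a POU6F1 peak to the nearest annotated start (x axis, upstream negative), for the 56 members with a peak. Right, fold enrichment over IgG in replicate 1 (x axis) and replicate 2 (y axis) at the same members, with *Mrpl10*, *Mrpl14* and *Mrpl38* in red. Summits lie within 100 bases of a start at 46 members.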

How the data were processed

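Per the labels, methods and the submitters' processing notes, cutadapt 3.4 trimmed the reads, which the authors mapped to GRCm38 by STAR 2.7.8a. The deposited RNA-seq values are raw counts per gene and embryo from HTSeq 0.11.4 (intersection-strict, no strand), 1690192 to 14015980 in genes. Reads outside features (20.99% to 43.9%), ambiguous reads (1.89% to 2.73%) and ERCC spike-ins were left out of library sizes and tests. For ChIP-seq the authors deposited peaks of each replicate (Bowtie2 2.4.4, MACS2 2.2.7.1, mm10) with fold enrichment over the control, -log10 p- and q-values and a score. Consensus peaks were rebuilt with bedtools 2.31.1 as overlaps of at least 1 base.

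Counts of all genes were tested with edgeR 4.0.16 (quasi-likelihood, TMM, filterByExpr) in a fit of the 3 genotypes with stages merged, a fit per stage and a fit of the 6 groups for changes with stage. DESeq2 1.42.0, other scalings, filters and designs and the omission of each embryo were alternatives. The stage comparisons in het and null embryos, their difference from wild-type and the het against wild-type comparisons by stage were added after seeing the data. CPM use effective library sizes, and levels per kb use the GENCODE principal mRNA. Exact permutation tests were two-sided, over embryos, on log2(CPM + 1). The labels name no litters, so p-values measure the spread between these embryos. Members were named with values when called or fully separated against hets or called within 1 stage, when among the 5 largest or most negative changes against hets or with stage in wild-type, when among the 5 highest or lowest per kb, when below the filter, and for the S18 paralogs. Of other lists, up to 4 genes were named. Members named beyond this rule (*Mrps14*, *Mrpl46*, *Mrpl58*, *Mrpl12*, *Mrps9*, *Mrps17*, *Mrps22*, *Mrpl40*, *Mrpl49*) were chosen after their values were seen. The members and gene lists were chosen with earlier results of these data known. For simulated counts the changed genes were drawn at random from all genes tested, not from the members. In null against het embryos 46% of 4-fold and 3% of 2-fold changes were recovered, in fits of 12764 and 12776 genes. With stage in wild-type 20% of 4-fold changes were recovered, in a fit of 17321. Counts differed between embryos of every group beyond sampling noise (chi-square per degree of freedom 25.2 to 205.1 over 38 pairs). Copies were sought with BLAST+ 2.17.0.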

Additional observations from a re-analysis of the deposited data

How the results depend on the processing

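Replicate numbers did not pair the embryos, since deviations of same-numbered embryos from their group means correlated at -0.106 to 0.0858 over 17 pairs, none above 0.1. The replicate block gave 1 call among the members in null against wild-type embryos with stages combined (2 without it) and 0 at E2.75 (2 without it). In null against het embryos with stages combined, 1 member was called, and 48 with ERCC scaling, 2 without the count filter, 2 with stage as a term and 2 at any fold. The other calls in null against wild-type embryos were 4 with ERCC scaling, 1 with only those groups in the fit and 4 at any fold with stages combined, 1 with DESeq2 at E2.5, and 4 with ERCC scaling, 1 without the filter, 0 with only those groups and 4 at any fold at E2.75. ERCC scaling gave 25 calls in null against het embryos at E2.5 and 22 at E2.75. DESeq2 gave 1 call in het against wild-type embryos at E2.75, 1 in hets with stage and 3 in the null against wild-type difference between stages. ERCC scaling turned the decrease with stage into 6 higher members in wild-type and 5 in null embryos, where the count without a filter was 1. The cause of these differences was not tested. With ERCC scaling 0 of 77 members were positive in null against het embryos, where 43 were with TMM, and 29 of 78 were negative with stage in wild-type, where 71 were with TMM. Among members with values above, those that turned sign included *Mrpl57* (-0.48), *Mrps18c* (-0.35), *Mrpl28* (-0.55), *Mrpl20* (-0.51) and *Mrps28* (-0.30) in null against het embryos and *Mrpl28* (0.016) and *Mrps36* (0.49) with stage in wild-type, and *Mrps18b* with stage ranged from -0.013 to 0.17 when embryos were left out. Leaving out 1 embryo gave 1 to 2 calls in null against het and 0 to 2 in null against wild-type embryos with stages combined, 0 to 1 and 0 to 3 in null against wild-type at E2.5 and E2.75, and 19 to 30 and 1 to 11 with stage in wild-type and null embryos. Members with a POU6F1 peak numbered 22 with the mCherry control, 22 with both controls, 30 with reciprocal overlap of 50% and 25 at a -log10 q of at least 10. Over all genes, null against het embryos gave 769 calls among 13415 tested, 1784 with DESeq2, 1808 without the filter and 332 with the block. ERCC scaling gave 4776 among the same 13415 (6.05% of the calls higher, against 64.1%). With stage, wild-type embryos gave 1378 among 18677 tested, 2104 without the filter (73.4% higher, against 50.7%) and 913 with the block. There ERCC scaling gave 3277 among the same 18677 (98.2% higher). Over these comparisons and settings, 73 of 99 counts of members stayed within 1.5 times the reported one, as did 231 of 253 with an embryo left out. For the single members with values, 174 of 228 kept direction and side of the threshold, and 773 of 837 with an embryo left out. In simulated counts with these depths and group sizes, 3% of 2-fold changes in null against het embryos and 0.5% with stage in wild-type were called. The changed genes were drawn at random from all genes tested. Members were read at higher levels than most genes, so these percentages are not their own recovery, which was not simulated. A member that was not called may still differ.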
